A study of Mus musculus with 2 samples.

Results

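MicroRNA (miRNA) genes whose precursors are made without the usual nuclear cut were examined in the adrenal gland of mice, 6 in all. They are Mir1839 and Mir664, which lie in small nucleolar RNAs (snoRNAs), Mir320 and Mir484, whose precursors begin at a transcription start, and Mir877 and Mir1224, which are short introns called mirtrons. The members were chosen by name, and all 6 of the 6 names matched one of the 2202 miRNA genes in each count table. The only group held 2 small RNA libraries of adrenal gland, from females of the strain 5xFAD/CAST at an adult age of 8 to 10 months. The 5xFAD line models Alzheimer's disease with transgenes under the neuronal Thy1 promoter, and CAST is a wild-derived inbred strain. Whether an animal carried the transgenes is not stated in the labels. Replicates 1 and 2 have separate biosamples but 1 donor identifier, and their spread may therefore be technical. The design holds no contrast between conditions. It allows the level of each gene, a comparison of the routes and a comparison of the libraries.

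In the usual route, the nuclear enzyme Drosha cuts a hairpin out of a long primary transcript, and Dicer trims the hairpin in the cytoplasm to a mature miRNA bound by an Argonaute protein. Mirtrons skip Drosha, because splicing and debranching of a short intron free the hairpin. Precursors that begin at a transcription start carry the methylguanosine cap of their transcript and leave the nucleus through exportin 1. H/ACA snoRNAs fold into a pair of hairpins and guide pseudouridylation of other RNAs, and Dicer can cut miRNA-sized pieces from some of them. Their relatives in the Cajal body are called scaRNAs.

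The mature sequences show how different the members are and carry no shared seed. RefSeq sequences on GRCm38.p6 were found for 5 of the 6 genes, all except Mir320. The seed, bases 2 to 8, is in capitals.
miR-1839-5p: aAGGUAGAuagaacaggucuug
miR-664-5p: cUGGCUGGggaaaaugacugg
miR-664-3p: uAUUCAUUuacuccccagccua
miR-484: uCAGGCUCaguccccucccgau
miR-877-5p: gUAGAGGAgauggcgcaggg
miR-877-3p: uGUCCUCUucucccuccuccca
miR-1224-5p: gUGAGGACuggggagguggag
miR-1224-3p: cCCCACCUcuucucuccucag
None of these 8 seeds occurred in a mature miRNA of another gene among the 1679 mature sequences of the RefSeq table. The table is incomplete, so a match outside it was not searched for.

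The annotation of the mm10 build placed both mirtrons exactly on an intron. Mir877 (ENSMUSG00000077931.1, minus strand) occupies chr17:35960730-35960814 and fills an 85-base intron of Abcf1, a gene of translation initiation. Mir1224 (ENSMUSG00000080669.1, plus strand) occupies chr16:20604452-20604536 and fills an 85-base intron of Vwa5b2. Both hairpins therefore begin and end with the splice-site dinucleotides, given in capitals below.
Mir877 hairpin: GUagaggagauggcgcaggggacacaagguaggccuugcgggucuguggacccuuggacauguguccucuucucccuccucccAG
Mir1224 hairpin: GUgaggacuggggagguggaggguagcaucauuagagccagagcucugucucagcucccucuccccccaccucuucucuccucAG
Of the 1005 hairpins in the RefSeq table, 30 (2.99%) begin with GU and end with AG, read on the hairpin's own strand, and of the 22 hairpins of 85 bases, 3 (13.6%) do. The 3p strands are rich in C and U, as the end of an intron usually is. C and U made up 90.9% of miR-877-3p, more than in 99.7% of the 709 mature 3p sequences, whose median was 59.1%. They made up 85.7% of miR-1224-3p, more than in 97.9% of these.

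Both snoRNA-derived genes lie in the 3′ part of an H/ACA-type RNA. Mir1839 (ENSMUSG00000104618.1, plus strand) occupies chr7:81529916-81529988 and shares 66 of its 73 bases with a scaRNA gene of the same name. The locus is an exon of one transcript and an intron of others of the long noncoding gene 2900076A07Rik. Mir664 (ENSMUSG00000105770.1, plus strand) occupies chr1:185242975-185243043 and shares 64 of its 69 bases with the snoRNA gene Snora36b, in an intron of Rab3gap2, a gene of Rab GTPase control. The host RNAs are shown in the GENCODE M21 transcript sequence, with the mature miRNA strands in capitals.
Mir1839 scaRNA, chr7:81529855-81529981, plus strand: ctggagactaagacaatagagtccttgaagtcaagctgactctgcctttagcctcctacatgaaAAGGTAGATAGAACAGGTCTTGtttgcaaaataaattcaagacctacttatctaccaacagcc
Snora36b, chr1:185242907-185243038, plus strand: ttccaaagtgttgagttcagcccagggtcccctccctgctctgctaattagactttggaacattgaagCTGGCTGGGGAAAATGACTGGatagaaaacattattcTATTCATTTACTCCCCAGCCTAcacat
Both transcripts have ACA 3 bases before their 3′ end, the motif that gives this class its name, read on the transcript's own strand. Among all 1558 annotated snoRNA and scaRNA transcripts, 301 (19.3%) do. The miRNA hairpin starts 61 bases into the Mir1839 scaRNA and 68 bases into Snora36b. In Snora36b the last base of miR-664-3p, base 127, is also the first base of the ACA.

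The route of the 2 transcription-start genes was not visible in the annotation as a transcript start on their own strand. Mir320 (ENSMUSG00000065528.1, plus strand, chr14:70443510-70443591) is intergenic. Its 5′ end lies 63 bases from the nearest start of Polr3d, an RNA polymerase III subunit gene that is transcribed away from it on the opposite strand. Mir484 (ENSMUSG00000070074.1, plus strand, chr16:14159626-14159692) lies 359 bases from the nearest start of Marf1, again on the opposite strand, and partly overlaps a Marf1 exon there. The nearest starts on their own strand lay downstream, so that the precursor stood at -13966 bases from the start of Phyhip for Mir320 and at -3649 bases from the start of Nde1 for Mir484. Their place in this route therefore rests on what is known of them, not on the files. The mature strand of Mir484, in capitals, starts 4 bases into its hairpin.
Mir484 hairpin: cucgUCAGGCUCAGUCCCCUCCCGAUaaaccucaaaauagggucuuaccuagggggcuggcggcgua

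**Figure D1:**
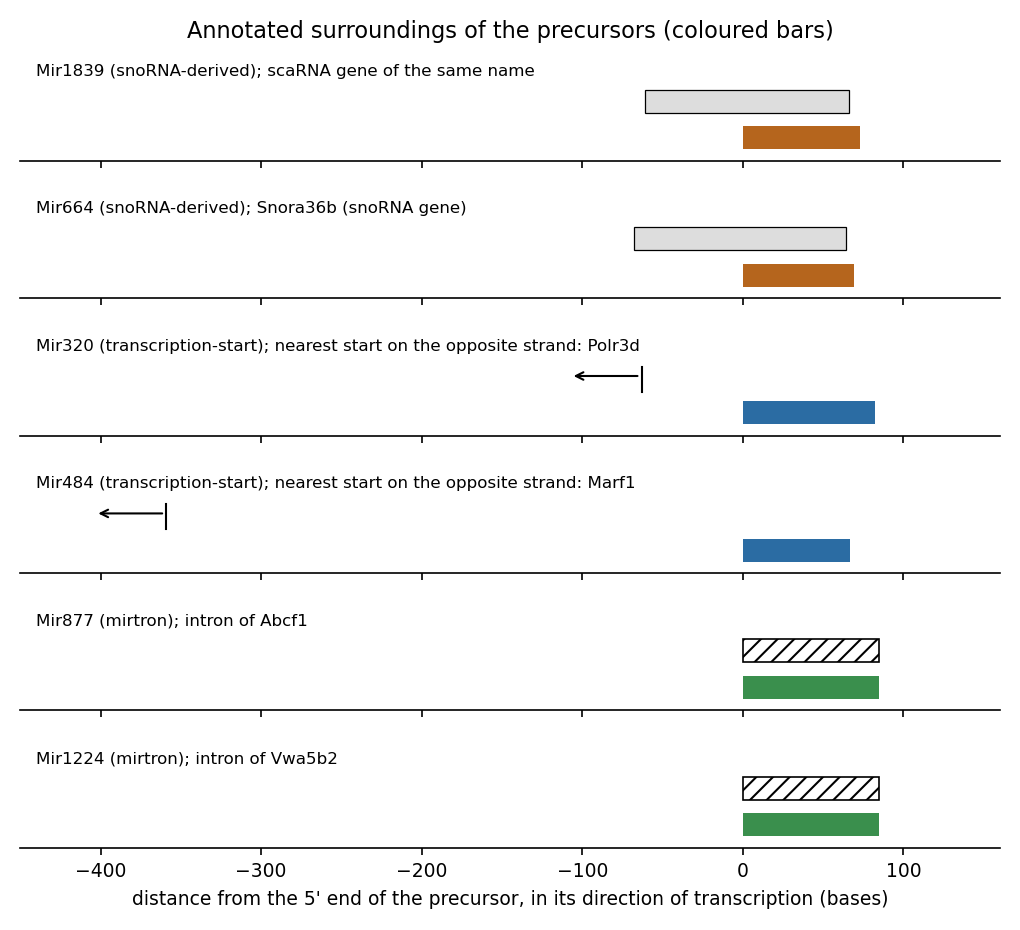
Annotated surroundings of the 6 precursors, with the distance in bases from the 5′ end of each precursor on the x axis. Coloured bars are the precursors, grey boxes the snoRNA or scaRNA genes, hatched boxes the host introns and arrows the nearest transcript start on the opposite strand; both mirtrons match their intron end to end, and the Mir1839 and Mir664 precursors start 61 and 68 bases into their host RNA.

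A count covers the whole precursor. It does not tell the 5p from the 3p strand, and pieces of the host snoRNA or intron that fall on the precursor count as well; their part in the levels was not tested. Levels are in CPM, reads of a gene per 1000000 reads on miRNA genes, from the column that holds 1 strand. That column summed to 3635851 reads on miRNA genes in replicate 1 and 6924829 in replicate 2, besides multimapping reads, 31.6% and 33.6% of all reads, which were assigned to no gene. In the tissue check, the 4 endocrine and chromaffin markers summed to 50710 and 48360 CPM. The endothelium marker Mir126a had 56680 and 41530 CPM, but 0.633 and 1.63 CPM in the column that counts both strands together. The 4 muscle markers, of which 1 was detected, summed to 5.78 and 5.63 CPM. The 3 kidney markers, of which 2 were detected, summed to 55.8 and 32.8 CPM. Liver Mir122 had 78.1 and 108.5 CPM, and neither of the 2 pancreas markers was detected.

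A gene was called detected at 10 or more reads per library. All 6 members were, as were 356 of all 2202 genes (16.2%). The members held 0.445% of the miRNA reads in replicate 1 (95% interval 0.438 to 0.452%, exact Clopper-Pearson) and 0.512% of those in replicate 2 (0.507 to 0.517%). Intervals here cover counting error only. The median of the members was 508 CPM, against 94.6 CPM over all 356 detected genes. None of the 6 precursors had a read in the column of the other strand, and the column that counts both strands together held the same read numbers for each. No stretch of 20 bases in a member recurred, in either orientation, in a different miRNA gene. Among other annotated transcripts, 1 of the 54 stretches of Mir1839 also occurs in a Gata4 transcript, and the rest of the genome was not analysed here.

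The transcription-start genes were the most abundant pair. Mir320 had 8137 reads in replicate 1 and 18776 in replicate 2, which is 2238 and 2711 CPM, with a mean of 2475 ± 335 CPM (SD, n = 2) and rank 44 of all genes. Mir484 had 5432 and 5842 reads, or 1494 and 844 CPM, with a mean of 1169 ± 460 CPM at rank 70. Mir320 was above Mir484 in both libraries and their ranges did not overlap, with Mir320 at 1.498 times Mir484 in replicate 1 and 3.21 times in replicate 2.

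The snoRNA-derived genes were far apart in level. Mir1839 had 1557 and 9334 reads, or 428 and 1348 CPM, with a mean of 888 ± 650 CPM (SD, n = 2) at rank 80. Mir664 had 535 and 599 reads, or 147 and 86.5 CPM, with a mean of 117 ± 42.9 CPM at rank 171. Mir1839 was high in replicate 2 and Mir664 in replicate 1, and Mir1839 stayed above Mir664 in each.

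The mirtrons were the least abundant pair of the members. Mir877 had 492 and 844 reads, or 135 and 122 CPM, with a mean of 129 ± 9.50 CPM (SD, n = 2) at rank 163. Mir1224 had 25 and 54 reads, or 6.88 CPM (exact 95% interval 4.45 to 10.2) and 7.80 CPM (5.86 to 10.2), with a mean of 7.34 ± 0.652 CPM at rank 305. Mir1224 lay above only 14.3% of the detected genes, whereas the other members lay above 52.0 to 87.6% of them.

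By mean CPM the order was Mir320, Mir484, Mir1839, Mir877, Mir664, Mir1224. The neighbours Mir484 and Mir1839 overlapped between the libraries, with Mir484 higher in replicate 1 and Mir1839 higher in replicate 2. Mir877 and Mir664 overlapped as well. The other neighbours did not overlap. Dividing the mean CPM by the length of the precursor, 67 to 85 bases, swapped only Mir877 and Mir664, which then stood at 1.51 and 1.69 CPM per base.

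**Figure D2:**
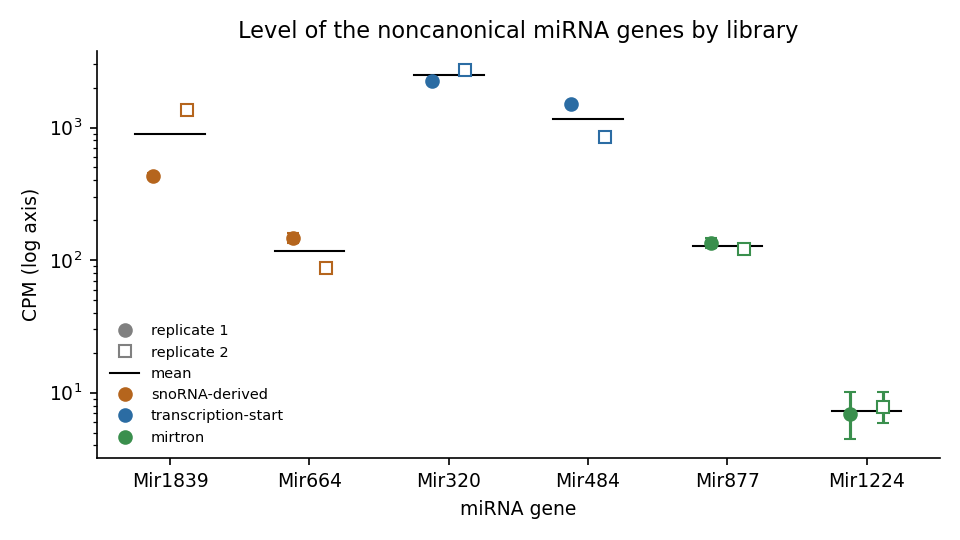
CPM of each gene on a log axis, with filled circles for replicate 1, open squares for replicate 2, bars for the exact 95% interval of counting error (hidden by the symbol where small) and black lines for the mean. The 2 Mir1839 values, 428 and 1348 CPM, are the farthest apart, whereas for Mir877 and for Mir1224 the values of the 2 libraries lie close together.

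Summed by route, the transcription-start genes took 0.373% of miRNA reads in replicate 1 (exact 95% interval 0.367 to 0.380%) and 0.356% in replicate 2 (0.351 to 0.360%), or 0.364% ± 0.0125 (SD, n = 2). The snoRNA-derived genes took 0.0575% (0.0551 to 0.0601%) and 0.143% (0.141 to 0.146%), or 0.101% ± 0.0607. The mirtrons took 0.0142% (0.0130 to 0.0155%) and 0.0130% (0.0121 to 0.0138%), or 0.0136% ± 0.000884. The order of the routes was the same in both libraries. Of the members' reads, the transcription-start genes held 83.9% and 69.5%, the snoRNA-derived genes 12.9% and 28.0%, and the mirtrons 3.20% and 2.53%.

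These sums each hid an uneven pair. Mir1839 supplied 74.4% of the snoRNA-derived reads in replicate 1 (exact 95% interval 72.5 to 76.3%) and 94.0% in replicate 2 (93.5 to 94.4%). Mir320 supplied 60.0% (59.1 to 60.8%) and 76.3% (75.7 to 76.8%) of the transcription-start reads, so its share was also larger in replicate 2. Mir877 supplied 95.2% (92.9 to 96.9%) and 94.0% (92.2 to 95.5%) of the mirtron reads, intervals that overlap.

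The next comparison was between the libraries, gene by gene, over the 455 genes with at least 10 reads in both libraries together. Fisher's exact test was run two-sided, with adjustment by Benjamini-Hochberg over all 455; it sets these 2 libraries, and no conditions, against each other, with counting error as its sole source of spread. It called 239 genes, or 52.5% of those tested, 16.9% higher and 35.6% lower in replicate 2. Among the 6 members it called 4, of which 2 were higher and 2 lower in replicate 2, a share near that background. edgeR's exact test, which adds the spread between the libraries through 1 dispersion for all genes, called 5 genes, or 1.1%, with 0.22% higher and 0.879% lower, and 0 of the 6 members. That dispersion was estimated from these same 2 libraries, so the differences under test also count as spread. A gene left uncalled by it is therefore not shown to be equal in the libraries. By the same edgeR exact test, 1 member, Mir1839, had an unadjusted p below 0.05, and 26 of all genes did. The median log2 ratio of the members was 0.01, against -0.18 over all 455 genes.

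Mir1839 stood out by size. It was 3.15 times higher in replicate 2 (interval of counting error 2.98 to 3.32), a log2 ratio of 1.65, with a Fisher adjusted p below 1e-300 and an edgeR adjusted p of 0.409. Of the 177 genes that averaged 100 CPM or more, 7 had a larger absolute log2 ratio, and 4 were higher in replicate 2 by a larger log2 ratio.

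Mir664, its partner by route, went the other way. It was 1.70 times lower in replicate 2 (interval 1.51 to 1.92), a log2 ratio of -0.77, with a Fisher adjusted p of 4.17e-18 and an edgeR adjusted p of 1. Per Mir664 read there were 2.91 reads of Mir1839 in replicate 1 (exact 95% interval 2.64 to 3.22) and 15.6 in replicate 2 (14.3 to 17.0).

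The transcription-start pair also parted. Mir320 was 1.21 times higher in replicate 2 (interval 1.18 to 1.24), a log2 ratio of 0.28, with a Fisher adjusted p of 1.02e-47. Mir484 was 1.77 times lower (interval 1.71 to 1.84), a log2 ratio of -0.82, with a Fisher adjusted p of 5.42e-197. By edgeR's exact test both had an adjusted p of 1. Among these 177 genes, 96 had a larger absolute log2 ratio than Mir320 and 28 a larger one than Mir484.

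Neither mirtron was called. Mir877 had a log2 ratio of -0.15 with a Fisher adjusted p of 0.112, and its ratio of replicate 2 to replicate 1 was 0.901 (interval 0.805 to 1.01). This sign turned under other scalings, to 0.05 with TMM normalization and 0.02 with DESeq2 size factors. Mir1224 had a log2 ratio of 0.17 with a Fisher adjusted p of 0.735, and a ratio of 1.13 whose interval, 0.694 to 1.902, spans differences in either direction.

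The log2 ratios were set side by side by route. Those of the 2 genes of a route differed by 2.42 for the snoRNA-derived pair, 1.10 for the transcription-start pair and 0.32 for the mirtrons. The closest of all 15 pairs, Mir664 and Mir484 with a difference of 0.06, came from different routes. TMM normalization shifted every log2 ratio by 0.20, which brought the called share of all genes to 52.7%, split into 27.3% higher and 25.5% lower, and kept the sign of the other 5 members. On that scale Mir1839 stood at 1.85, Mir320 at 0.48, Mir664 at -0.57 and Mir484 at -0.62.

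**Figure D3:**
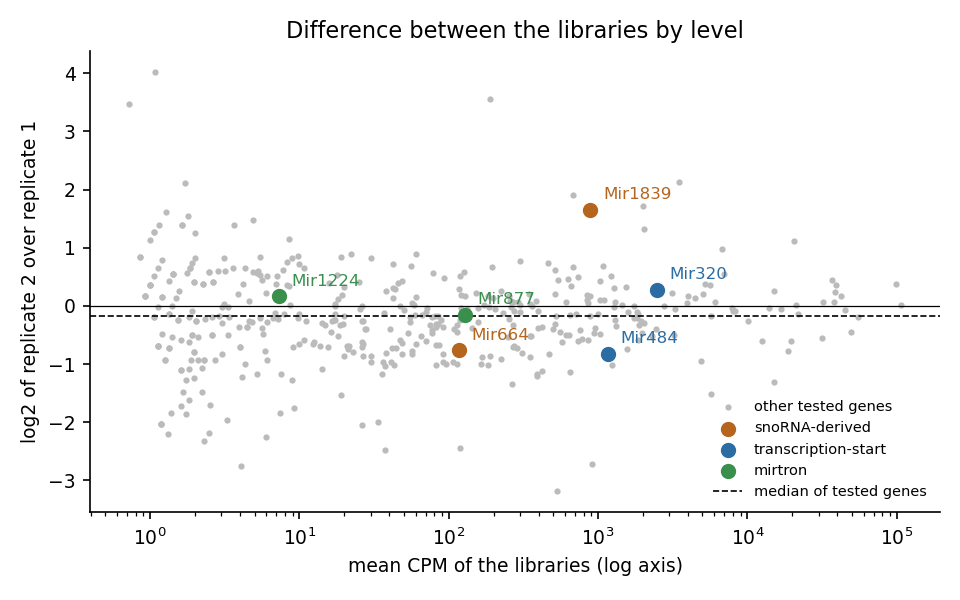
Log2 ratio of replicate 2 over replicate 1 against the mean CPM (log axis) for the 455 tested genes, with the 6 members in colour, other genes in grey and the median of -0.18 as a dashed line. Mir1839 lies at 1.65 above most genes of its level, Mir664 and Mir484 lie near -0.8, and the mirtrons lie near 0.

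The genes nearest to each member over the 2 libraries, by Euclidean distance of log2(CPM + 1), were Mir186 for Mir664 (distance 0.0764), Mir196a-2 for Mir877 (0.1), Mir15a for Mir484 (0.159), Mir450-2 for Mir1224 (0.161), Mir28a for Mir320 (0.315) and Mir298 for Mir1839 (0.676). Mir1839 thus had the most distant nearest gene of the 6. Mir298 stood at 285 and 1065 CPM. Mir186 stood at 140 and 84.5 CPM and Mir15a at 1661 and 818.5 CPM, so each was lower in replicate 2, as were Mir664 and Mir484. Distances over 2 libraries mainly reflect the level. The counts of Mir196a-2, Mir28a and Mir450-2 are uncertain, since each has a stretch of 20 bases in common with a different miRNA gene.

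To place the members among genes of like position, the annotation was searched for other miRNA genes with both ends within 10 bases of the ends of an intron, over a snoRNA or scaRNA gene on their strand, or at a transcript start of another gene. Of 27 other genes at intron ends, 5 were detected (18.5%), against 16.2% of all miRNA genes, with a median of 30.2 CPM. Mir3102, in Arhgef17, had 394 and 224 CPM, and Mir1981, in Marc2, 298 and 300 CPM. Both were more abundant than Mir877, which was the third of the 29 genes of this kind when the members are included. Mir3547, in Baiap3, followed at 39.1 and 21.4 CPM, and Mir702, a known mirtron in Plod3, at 31.6 and 20.5 CPM. Mir1224 was sixth. Fisher's exact test called 0 of the 7 tested genes at intron ends higher in replicate 2 and 3 lower, Mir3102, Mir3547 and Mir702, against 16.9% and 35.6% over all tested genes; 0 of the 7 were called by edgeR's exact test.

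Of 22 other genes over a snoRNA or scaRNA gene, 12 were detected (54.5%), with a median of 23.6 CPM. Mir1843a and Mir1843b, over Scarna3b and Scarna3a, had 284 and 251 CPM in replicate 1 and 296 and 266 CPM in replicate 2, but both have 20-base stretches in common with other miRNA genes and uncertain counts. Mir3068 had 101 and 151 CPM. Mir1839 was the most abundant of the 24 genes of this kind and Mir664 the fifth. Of the 13 tested, 2 were called higher in replicate 2 by Fisher's exact test and 0 lower, against 16.9% and 35.6% over all tested genes; Mir3068 had a log2 ratio of 0.58 and Gm49347, named after its values were seen, 0.88. None of the 13 was called by edgeR's exact test. The log2 ratio of 1.65 of Mir1839 was larger than either.

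Of 89 other genes within 50 bases of a transcript start on their strand, 18 were detected (20.2%), with a median of 17.9 CPM. This median was below the 30.2 CPM at intron ends and the 23.6 CPM over snoRNA or scaRNA genes. The order of the routes among the members therefore did not recur in the medians of these lists. Mir125b-1 led at 209 and 201 CPM, followed by Mir24-1 at 63.5 and 94.4 CPM and the gene named mmu-mir-3535 at 82.2 and 72.5 CPM. Mir125b-1 and Mir24-1 share sequence with another miRNA gene, in a search of both orientations. The level of Mir24-1 is uncertain because it depends on the column, with 0 reads in the one that counts both strands together. Whether its reads were set aside there as ambiguous was not tested. Mir320 and Mir484 were above every gene of this list in mean CPM, though neither meets the list's own rule. The list mixes kinds, as 12 of its genes also lie over a snoRNA or scaRNA gene. Fisher's exact test called 1 of its 32 tested genes higher and 5 lower in replicate 2, against 16.9% and 35.6% over all tested genes. edgeR's exact test called 0 of the 32, against 1.1%.

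**Figure D4:**
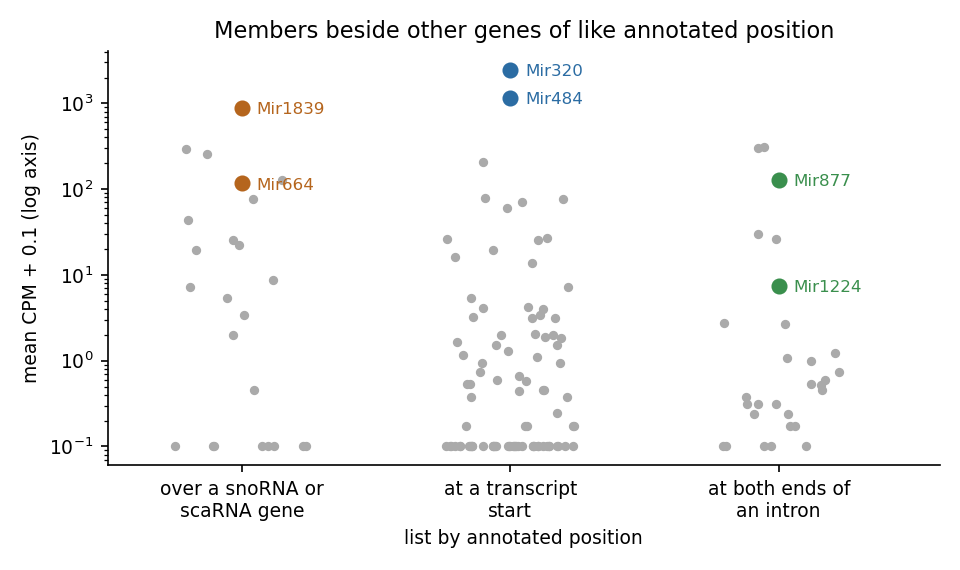
Mean CPM plus 0.1 (log axis) of other genes of like annotated position (grey) and the members (colour), by list. Mir1839 is the highest gene over a snoRNA or scaRNA, Mir877 is the third among genes at intron ends, and Mir320 and Mir484 are shown with the transcript-start list although the annotation holds no start of another gene near them on their strand.

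Mir451a, the red cell miRNA whose precursor is cut by Argonaute 2 in place of Dicer, gives a level for a further noncanonical route. It had 1380 and 1041 reads, or 380 and 150 CPM, a log2 ratio of -1.34, with an edgeR adjusted p of 0.820. It shares sequence with another miRNA gene, in a search of both orientations. Its count is uncertain because it depends on the column, with 0 reads in the one that counts both strands together. Whether its reads were set aside there as ambiguous was not tested. The red cell markers Mir451a and Mir144 together summed to 427 and 175 CPM, and a link of that difference to the members was not tested.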

How the data were processed

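Small RNA from 2 adrenal libraries of 1 group was analysed. The authors deposited raw read counts per miRNA gene, with 3 unnamed count columns and entries that name no gene. The README deposited beside each table names the build mm10 and the annotation GENCODE M21. Which aligner, counter and trimming were used is not given in the sources used here. From the values, the columns were taken as both strands, 1 strand and the other strand. On miRNA genes, the 1-strand and other-strand columns together exceeded the both-strand column by 952252 reads in replicate 1 and 1611930 in replicate 2. The both-strand column is therefore not their sum, and it set 476126 and 805965 reads aside as ambiguous. The 1-strand column is the main one. Entries that name no gene stayed out of totals, so miRNAs with several copies are undercounted. Of all reads, 16.1% and 16.5% were unmapped, 31.6% and 33.6% multimapping and 5.55% and 4.99% on no gene. The ambiguous share, 6.12% and 5.24%, is that of the both-strand column. That column summed to 3159960 and 6119201 reads on miRNA genes. The 1-strand column summed to more, 3635851 and 6924829, so these ambiguous shares do not give the reads left out of its total. The limit that a count of 0 allows, 3 counts, was 0.825 CPM in replicate 1 and 0.433 CPM in replicate 2. The reads carry no molecular identifiers, so intervals cover counting error and not PCR copies.

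Log2 ratios used an offset of 0.5 counts. edgeR's dispersion came from an intercept-only fit with TMM over 356 detected genes and corresponds to a coefficient of variation of 31.2%. The edgeR exact test itself was run on plain totals, without TMM. With 1 library on each side no quasi-likelihood test was possible. For the alternatives with TMM or DESeq2 size factors, the totals were scaled and tested by an exact binomial test. The procedures were tested on simulated data drawn for this comparison. Fisher's exact test called 140 of 140 genes changed 2-fold or 4-fold. It called 0 of 465 unchanged genes in a simulation without changes, whose counts were drawn with counting error only. That result gives no rate of false calls for the real libraries, whose spread goes beyond counting error. edgeR's exact test called 10 of 10 genes changed 16-fold in a simulation where only these changed, and 0 of the 140 genes changed 2-fold or 4-fold; fold size and number of changed genes differ between these simulations, so their parts cannot be told apart.

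Named genes are the members, the nearest gene to each, Mir451a, Mir702 and at most 3 detected genes per list, taken in order of mean CPM. Outside this rule, Mir122, Mir126a and Mir144 are named as tissue markers, and Gm49347 was chosen after its values were seen. In the snoRNA list, genes of type scaRNA were included, as Mir1839 lies in one. The members, lists and rules were chosen with earlier results of these data known. Versions were edgeR 4.0.16 and DESeq2 1.42.0 in R 4.3.3, scipy 1.17.1, pandas 2.3.3, numpy 2.4.6 and matplotlib 3.10.9 in Python 3.11.15, and RNAfold 2.7.2.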

Additional observations from a re-analysis of the deposited data

How the results depend on the processing

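Over the alternatives of the members' log2 ratios, 36 of 42 kept the direction and the side of the threshold. Mir877 reversed with TMM normalization (0.0481) and DESeq2 size factors (0.0249), and edgeR's exact test ended the Fisher calls of Mir1839, Mir664, Mir320 and Mir484, leaving 5 genes and 0 members called in place of 239 and 4. The ranges were 1.63 to 1.85 for Mir1839, -0.79 to -0.57 for Mir664, 0.25 to 0.48 for Mir320 and -0.85 to -0.62 for Mir484. The sum of the members was 4784 CPM, 5456 in the both-strand column and 2192 CPM of all reads; leaving out a replicate gave 4450 to 5119. The transcription-start share moved from 0.364% to 0.416% and 0.167% under these alternatives, and the mirtron share from 0.0136% to 0.0155% and 0.00624%, because the totals differ. Leaving out a replicate gave 0.356 to 0.373% and 0.0130 to 0.0142%, and 0.0575 to 0.143% for the snoRNA-derived share. With a minimum of 1 read, 16 of 27 genes at intron ends and 40 of 89 at transcript starts were detected, in place of 5 and 18. Over all 2202 miRNA genes, that minimum gave 599 in place of 356. Within 30 bases of intron ends 9 of 71 genes (12.7%) were detected, and within 10 bases of a transcript start 6 of 27 (22.2%). The share over all miRNA genes was 16.2%. With snoRNA genes only, an alternative chosen after seeing the data, 9 were detected in place of 12. Counts were lowest for Mir1224, whose intervals are the widest of the members relative to the value. No paired analysis was possible because there is a single group.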

Other observations

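The 5 members with a RefSeq hairpin differed in predicted folding. The minimum free energy from RNAfold, per base of the RefSeq hairpin, was -0.504 kcal/mol for Mir1224 and -0.429 for Mir877, against a median of -0.406 over the 1005 hairpins of the table. It was -0.407 for Mir664, -0.367 for Mir484 and -0.301 for Mir1839, and 88.2% of hairpins had a lower value than Mir1839. From the strongest to the weakest of these 5 hairpins, the mean levels were 7.34 CPM for Mir1224, 129 for Mir877, 117 for Mir664, 1169 for Mir484 and 888 for Mir1839. Mir320, the most abundant member, had no hairpin in the table. The G and C content of the hairpins was 37.0% for Mir1839 and 40.6% for Mir664, above 6.57% and 12.5% of hairpins, whereas Mir484, Mir1224 and Mir877 stood at 58.2%, 60.0% and 61.2%. These values describe 5 genes, and no relation between folding, base composition and level was tested.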
